A study of Homo sapiens with 42 samples.

Results

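Messenger RNA of MiaPaCa-2 cells treated with lovastatin at 20 µM was compared with that of MiaPaCa-2 control cells. MiaPaCa-2 is an established line of human pancreatic cancer cells, and the labels give passages and culture medium in common for all groups. The 4 libraries, controls 1 and 2 and lovastatin libraries 1 and 2, were chosen by their labels from a table of 42 columns, of which 40 were independent of each other. The third column of both groups was a weighted sum of other columns and was left out. The other groups used below were MiaPaCa-2 with lovastatin at 2 µM, simvastatin at 20 µM and fluvastatin at 20 µM, and PANC-1, another pancreatic cancer line, as control and with lovastatin at 20 µM, with 3 libraries each. The series asked how a low and a high statin concentration alter gene expression in pancreatic cancer cells. The sources used here give neither the length of treatment nor the vehicle of the control cells.

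Statins block the formation of mevalonate. Cells turn mevalonate into cholesterol, dolichol, ubiquinone and the farnesyl and geranylgeranyl groups that anchor Ras, Rab and other small GTPases to membranes. A cell that runs short of sterols normally releases the transcription factor SREBP2, which raises the genes of sterol synthesis and uptake, and loss of prenylated GTPases is known to disturb the actin cytoskeleton and the cell cycle. Lovastatin and simvastatin are lactone prodrugs that differ by a methyl group on the side chain ester, and fluvastatin is fully synthetic.

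Levels are FPKM, which scales sequenced fragments by transcript length and library total, and changes are log2 fold changes of FPKM + 1, tested with limma and called at a Benjamini-Hochberg adjusted p under 0.05. The depth of the libraries is unknown. Nothing in the labels tells whether replicate libraries came from separate cultures, so the p-values rest on the spread between libraries, which may be technical. That spread was estimated over all 7 MiaPaCa-2 groups and not from the 4 libraries alone. The 2 controls correlated at r = 0.99053 over genes and the 2 lovastatin libraries at r = 0.98320, while a control and a lovastatin library correlated at 0.8844 to 0.89039; genes are not independent replicates. Of 8 ductal epithelial markers 6 were in the table. Their summed level was 1172 and 1138 FPKM in the controls and 805 and 815 FPKM with lovastatin. KRT8, KRT18 and KRT19 made up most of that sum, and the epithelial adhesion genes EPCAM and CDH1 were at or below 1.25 FPKM in all 4 libraries, while the mesenchymal filament gene VIM was at 3010.1 and 2933 FPKM in the controls. Of the fibroblast and the leukocyte markers 2 each were present, with sums of 55.5 and 69.7 FPKM in the controls and 150.4 and 140.5 FPKM with lovastatin for COL1A1 and COL1A2, and of 19.1 and 20.5 against 29.8 and 27.1 FPKM for CD14 and CD68. Of the acinar, islet and endothelial markers and mitochondrially encoded mRNAs looked for, 0 were in the table. Whether the cells expressed them cannot be read from it. In RNA from whole cultures, fewer cells of a kind and less RNA per cell cannot be told apart.

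Lovastatin at 20 µM changed most genes of the table, with about as many higher as lower. KRT16, PTGDS, RHOB and FOS had the largest increases, and NUF2, RRM2 and DLGAP5 were among the largest decreases. Of 8534 genes tested, 5028 (58.9%) were called, with 2462 (28.8%) higher and 2566 (30.1%) lower. The median log2 fold change of all genes was 0.01. The columns hold nearly the same values, with medians of 4.374 to 4.383 in the 4 libraries on the log2 scale. This median and the even balance were therefore largely set by the table and are not read as an effect of the drug. At least 2-fold increases were called for 966 genes (11.3%) and at least 2-fold decreases for 906 (10.6%). Both lovastatin libraries lay above both controls in 3371 genes (39.5%) and below both in 3380 (39.6%). These shares hold for the deposited table, whose genes were chosen by a rule that no source used here states. The counts of the gene lists below are to be read against them.

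**Figure D1:**
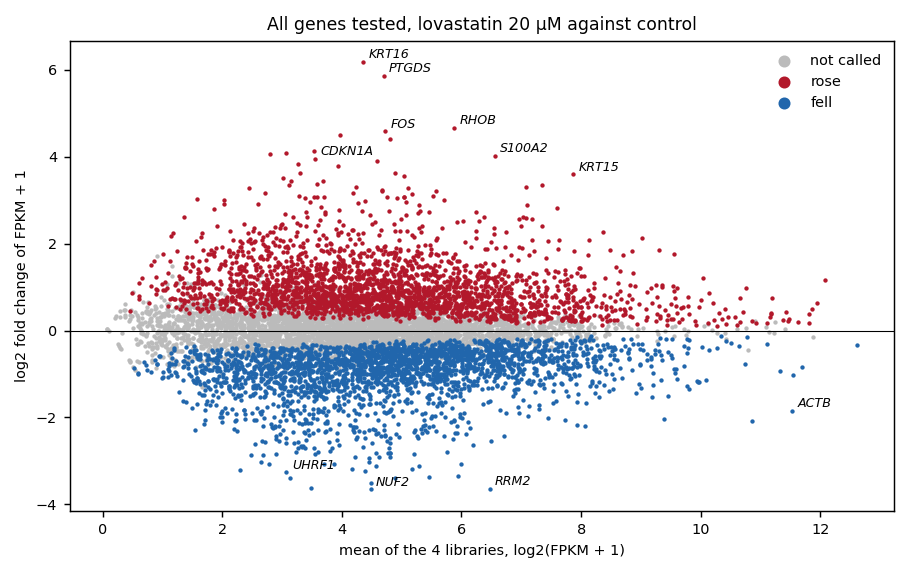
Each point is 1 of the 8534 genes tested, with the mean log2(FPKM + 1) of the 4 libraries on the x axis and the log2 fold change of FPKM + 1 with lovastatin at 20 µM on the y axis. Red points rose and blue points fell at an adjusted p under 0.05, and grey points were not called; KRT16, PTGDS, RHOB and FOS lie at the upper edge, and RRM2 and NUF2 at the lower edge.

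Among the largest increases was KRT16, a keratin of stressed and wounded epithelium, at 1.49 and 1.34 FPKM in the controls and 163 and 186 FPKM with lovastatin (log2 fold change 6.18, SE 0.15, adjusted p = 1.9e-14), a 72.6-fold change of FPKM + 1. PTGDS, a prostaglandin D2 synthase, had 3.43 and 1.61 FPKM in the controls and 201 and 194 FPKM with lovastatin (log2 fold change 5.87, SE 0.20, adjusted p = 1.1e-12). S100A2, a calcium-binding protein of basal epithelium, had 26.1 and 19 FPKM in the controls and 371 and 387 FPKM with lovastatin (log2 fold change 4.03, SE 0.16, adjusted p = 5.4e-12). RHOB, a small GTPase of endosomes and stress responses, had 12 and 9.41 FPKM in the controls and 290.4 and 299 FPKM with lovastatin (log2 fold change 4.67, SE 0.089, adjusted p = 3.5e-15), the third largest increase. These genes were chosen among those whose groups did not overlap, and the lovastatin libraries were close to each other. TSC22D3, a leucine zipper gene known for its induction by glucocorticoids, stood at 2.64 and 1.95 FPKM without and 72.9 and 74.3 FPKM with lovastatin (log2 fold change 4.51, SE 0.18, adjusted p = 5.4e-12). TNFRSF9, a receptor of the TNF family also called 4-1BB, went from 1.89 and 1.6 to 48.4 and 46.7 FPKM (log2 fold change 4.14, SE 0.29, adjusted p = 6.3e-09). PNCK, a calmodulin-dependent kinase, was below 1 FPKM in both controls and at 25.1 and 29.9 FPKM with lovastatin (log2 fold change 4.07, SE 0.38, adjusted p = 1.8e-07).

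**Figure D2:**
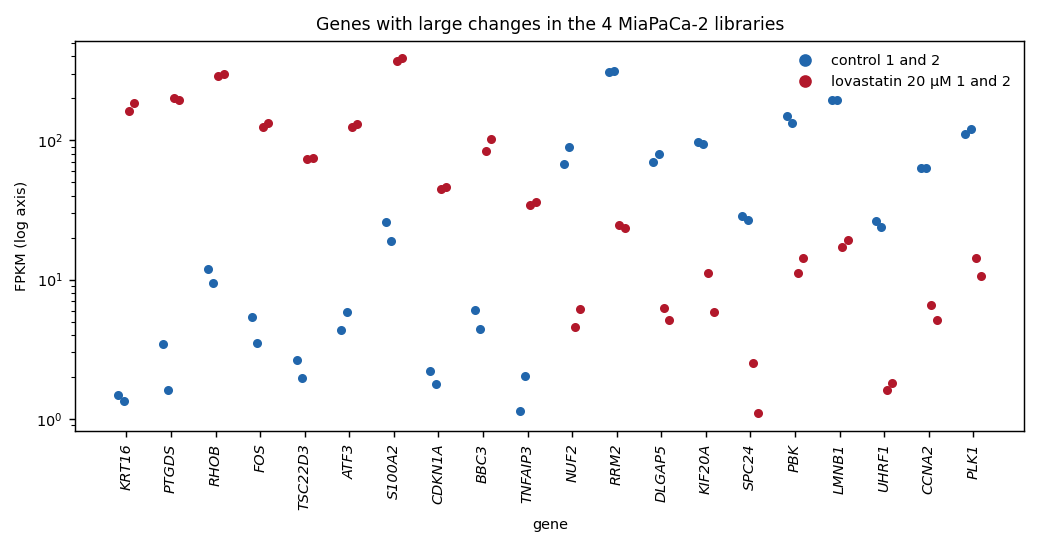
Level of 20 genes in controls 1 and 2 (blue) and lovastatin libraries 1 and 2 (red), in FPKM on a log axis, with 1 point per library. The genes from KRT16 to TNFAIP3 rose and those from NUF2 to PLK1 fell. They were chosen among called genes whose groups do not overlap, so the separation of the groups is no result.

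The largest decreases were nearly all in genes of proliferating cells. NUF2, a kinetochore protein that ties chromosomes to spindle microtubules, had 68.2 and 89.5 FPKM in the controls and 4.56 and 6.11 FPKM with lovastatin (log2 fold change -3.65, SE 0.23, adjusted p = 1.1e-09). RRM2, the subunit of ribonucleotide reductase that is made for S phase, had 308 and 317 FPKM in the controls and 24.7 and 23.5 FPKM with lovastatin (log2 fold change -3.64, SE 0.20, adjusted p = 3.6e-10). Both controls were above both lovastatin libraries in each gene, which the rule that chose them required. The processed pseudogene RRM2P3 had -3.62 on the log2 scale, but it is nearly identical to RRM2 and its reads may come from RRM2. LMNB1, the B-type lamin of the nuclear envelope, fell from 196 and 194 to 17.3 and 19.2 FPKM (log2 fold change -3.35, SE 0.14, adjusted p = 6.6e-12). PRR11, a cell cycle protein, fell by 3.19, and NCAPG, a condensin subunit, fell by 3.12 on the log2 scale. NMU, the peptide neuromedin U, was outside the cell cycle and went from 13.1 and 15 to 0.487 and 0.78 FPKM (log2 fold change -3.20, SE 0.50, adjusted p = 4.8e-05).

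DNA replication genes fell without exception among those tested. All 29 genes of replication origins, the helicase, the polymerases and the clamp were lower and 26 of them at least 2-fold, against 30.1% and 10.6% of all genes. Their median log2 fold change was -2.26, with a range of -3.07 to -0.71. POLE2, a subunit of the leading strand polymerase epsilon, had 22.1 and 16.3 FPKM in the controls and 1.98 and 0.901 FPKM with lovastatin (log2 fold change -3.07, SE 0.45, adjusted p = 2.4e-05). ORC1, which marks origins, went from 13.6 and 14.5 to 1.2 and 0.948 FPKM (log2 fold change -2.86, SE 0.13, adjusted p = 4.3e-11), and MCM10, which activates the helicase, from 14.1 and 20.0 to 0.988 and 1.41 FPKM (log2 fold change -3.02, SE 0.27, adjusted p = 1.3e-07). CDC6, which loads the helicase, and GINS2, a part of it, had -2.82 and -2.66 on the log2 scale. PCNA, the sliding clamp, was abundant and fell from 206 and 208 to 49.9 and 60.0 FPKM. Both lovastatin libraries lay below both controls in all 29 genes, against 39.6% of all genes. Of 18 enzymes that supply nucleotides 15 fell and 1 rose (median -0.93), against 30.1% and 28.8% of all genes. After RRM2, the thymidylate synthase TYMS fell from 240.3 and 242 to 46.3 and 42.2 FPKM (log2 fold change -2.42, SE 0.093, adjusted p = 4.2e-12) and the thymidine kinase TK1 from 97.1 and 85.6 to 16.5 and 17.1 FPKM (log2 fold change -2.37, SE 0.21, adjusted p = 7.8e-08). The exception was IMPDH2, which makes guanine nucleotides, at 168 and 169 FPKM in the controls and 269 and 259 FPKM with lovastatin (log2 fold change 0.65, SE 0.051, adjusted p = 2.7e-08).

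Genes of mitosis fell as a group. Of 37 tested, 36 fell and 35 of these at least 2-fold, against 30.1% and 10.6% of all genes, with a median of -2.49. CDC25B, a phosphatase that starts mitosis, had 106 and 112 FPKM in the controls and 111 and 101 FPKM with lovastatin and was not called. DLGAP5, a spindle protein, went from 70.0 and 79.9 to 6.21 and 5.14 FPKM (log2 fold change -3.51, SE 0.19, adjusted p = 1.9e-10). KIF20A, a kinesin of the dividing midzone, went from 97.7 and 94 to 11.2 and 5.86 FPKM (log2 fold change -3.40, SE 0.26, adjusted p = 1.7e-08). PLK1, a kinase that drives entry into mitosis, went from 110.3 and 119.7 to 14.3 and 10.6 FPKM (log2 fold change -3.12, SE 0.27, adjusted p = 6e-08). In these 3 genes both lovastatin libraries were below both controls, which the rule that chose them required. SPC24, a kinetochore protein, and PBK, a mitotic kinase, fell by 3.39 and 3.37 on the log2 scale. BIRC5, the chromosomal passenger protein survivin, had -3.18, and CCNA2, cyclin A2, had -3.23 on the log2 scale. CCNB1, cyclin B1, the most abundant of the list, fell from 601 and 548 to 127 and 122 FPKM.

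Promoters of mitosis genes are known to hold a CHR element, TTTGAA, and CCAAT boxes, through which the DREAM and MuvB complexes and NF-Y act, and replication genes to hold E2F sites. Sequences were taken from RefSeq (build GRCh38.p14), covering 250 bases before each gene start, and searched on both strands. Of the 36 fallen mitosis genes 30 had a promoter sequence. TTTGAA was found in 15 of them (50%), against 7.88% of 6266 promoters of genes in the table and 13.6% of all 27305 promoters. CCAAT was found in 24 (80%), against 35.1% and 33%. Among fallen replication genes 26 had a promoter, and TTNGCGC was found in 10 (38.5%), against 11.5% and 6.73%. Among all tested mitosis genes with a promoter, called or not, the shares were 48.4% for TTTGAA and 77.4% for CCAAT. The lists were made of mitosis and replication genes, so these shares describe their members and not the fall. These matches describe letters in a window and were compared without a test. The last bases before the start of the strongly fallen genes PLK1 (chr16:23678739-23678888, plus strand), DLGAP5 (chr14:55191586-55191735, minus strand), KIF20A (chr5:138178962-138179111, plus strand) and CCNA2 (chr4:121823884-121824033, minus strand) are shown with TTTGAA and CCAAT in capitals on either strand, and those of the replication genes POLE2 (chr14:49688215-49688314, minus strand) and ORC1 (chr1:52404424-52404523, minus strand) with TTNGCGC in capitals, where in ORC1 matches on both strands overlap. PLK1 and DLGAP5 held both motifs in the stretch shown, and KIF20A and CCNA2 held CCAAT, read as ATTGG on this strand.
PLK1: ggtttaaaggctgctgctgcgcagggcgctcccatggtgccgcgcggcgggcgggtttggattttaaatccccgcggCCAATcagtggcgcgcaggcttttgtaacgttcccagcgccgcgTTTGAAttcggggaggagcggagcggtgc
DLGAP5: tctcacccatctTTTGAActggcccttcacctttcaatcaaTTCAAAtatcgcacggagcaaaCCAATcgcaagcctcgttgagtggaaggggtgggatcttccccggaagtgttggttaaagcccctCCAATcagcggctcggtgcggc
KIF20A: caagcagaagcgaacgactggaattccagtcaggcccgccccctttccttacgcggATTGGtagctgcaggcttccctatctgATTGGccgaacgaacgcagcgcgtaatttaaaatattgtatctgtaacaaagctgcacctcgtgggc
CCNA2: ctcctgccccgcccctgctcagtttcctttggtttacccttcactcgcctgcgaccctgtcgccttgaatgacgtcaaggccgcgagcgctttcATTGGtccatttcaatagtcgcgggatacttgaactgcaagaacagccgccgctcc
POLE2: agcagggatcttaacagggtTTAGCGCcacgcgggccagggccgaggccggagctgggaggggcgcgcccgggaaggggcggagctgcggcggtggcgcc
ORC1: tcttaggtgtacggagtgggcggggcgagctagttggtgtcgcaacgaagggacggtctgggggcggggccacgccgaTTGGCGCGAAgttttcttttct

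Of 18 regulators and cyclins of the G1/S transition 12 fell and 2 rose (median -0.97), and 1 of the 2 increases, that of RBL2, was no longer called without control 1. E2F1, which activates replication genes, went from 23.2 and 21.5 to 2.55 and 3.37 FPKM (log2 fold change -2.57, SE 0.16, adjusted p = 1.7e-09). FOXM1 and MYBL2, which activate mitosis genes, fell by 2.34 and 2.30 on the log2 scale. CCND1, cyclin D1, went from 63.7 and 60.8 to 31.4 and 37.3 FPKM (log2 fold change -0.84, SE 0.21, adjusted p = 0.0025). MYC, the growth-promoting transcription factor, moved the other way, with 100.5 and 100.4 FPKM in the controls and 206 and 228 FPKM with lovastatin (log2 fold change 1.10, SE 0.072, adjusted p = 2.4e-09). Of 27 DNA repair genes 23 fell and 0 rose, against 30.1% and 28.8% of all genes, with a median of -1.41. UHRF1, which carries DNA methylation through replication, had 26.5 and 23.8 FPKM in the controls and 1.62 and 1.82 FPKM with lovastatin (log2 fold change -3.26, SE 0.13, adjusted p = 4.3e-12), and the nuclease EXO1 had 31.3 and 29.4 FPKM in the controls and 3.01 and 3.76 FPKM with lovastatin (log2 fold change -2.84, SE 0.25, adjusted p = 1.1e-07). Among 14 histone genes 5 rose and 6 fell, against 28.8% and 30.1% of all genes. The variants H2AFZ and H2AFX, which are polyadenylated, fell by 1.67 and 1.73, while HIST2H2BE and HIST3H2A rose by 1.64 and 1.47; mRNAs of replicative histones mostly lack a poly(A) tail, and the libraries were made by poly-T capture.

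All 17 CDK inhibitors and p53-type genes tested were called, 14 higher and 3 lower (median 1.42), against 28.8% and 30.1% of all genes. CDKN1A, the CDK inhibitor p21, had 2.21 and 1.77 FPKM in the controls and 44.5 and 45.9 FPKM with lovastatin (log2 fold change 3.95, SE 0.12, adjusted p = 5.3e-13). BBC3, the death-promoting BCL2 protein PUMA, had 6.07 and 4.44 FPKM in the controls and 83.6 and 102 FPKM with lovastatin (log2 fold change 3.91, SE 0.14, adjusted p = 2.3e-12). BTG2, an antiproliferative cofactor, and GADD45A, a stress sensor, rose by 2.70 and 2.50 on the log2 scale. The INK4 inhibitors CDKN2C and CDKN2D moved the other way and fell by 1.38 and 1.18. Many genes of this list are known p53 targets, and MiaPaCa-2 is known to carry mutant p53. Of 13 BCL2 family genes 7 rose and 2 fell, against 28.8% and 30.1% of all genes. Besides BBC3, the death-promoting PMAIP1, NOXA, went from 6.24 and 7.38 to 52.1 and 51.1 FPKM (log2 fold change 2.76, SE 0.15, adjusted p = 1.7e-10), BMF rose by 1.42 and BCL2L11, BIM, by 1.40. The survival gene BCL2L1 also rose, from 41.4 and 40.2 to 60.1 and 81.8 FPKM, while MCL1, another survival gene, had 126 and 127 and 124 and 127 FPKM and was not called. The death-promoting BAX, BAD and BID were not called either (0.30, 0.02 and 0.32). Of the 2 decreases, that of BAK1 was lost without lovastatin library 1 and without either control.

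Of 21 sterol synthesis genes tested, 6 rose, 4 fell and 11 were not called, and the median log2 fold change was 0.02. The share that rose was near the 28.8% of all genes, and the share that fell was below the 30.1% of all genes. HMGCS1, which makes HMG-CoA, had 15.4 and 17.5 FPKM in the controls and 40.1 and 33.8 FPKM with lovastatin (log2 fold change 1.12, SE 0.14, adjusted p = 4.5e-06). LSS, which closes the sterol ring, had 17.9 and 23.4 FPKM in the controls and 39.5 and 45.4 FPKM with lovastatin (log2 fold change 1.01, SE 0.19, adjusted p = 0.00028). MVD, which makes isopentenyl diphosphate, had 18.6 and 35.1 FPKM in the controls and 69.6 and 62.8 FPKM with lovastatin (log2 fold change 1.34, SE 0.38, adjusted p = 0.0068); without control 1 its value was 0.89 (adjusted p = 0.106). FDPS, which makes farnesyl diphosphate, went down from 147 and 138 to 99.4 and 92.6 FPKM (log2 fold change -0.56, SE 0.15, adjusted p = 0.0047). ACAT2, which joins acetyl-CoA units at the start of the pathway, had 42.6 and 49.5 FPKM in the controls and 23.7 and 27.7 FPKM with lovastatin (log2 fold change -0.82, SE 0.15, adjusted p = 0.00028), and EBP, a late sterol isomerase, had -0.58. LBR, a lamin B receptor that also acts as a sterol reductase, fell most, from 77.6 and 84.6 to 30.5 and 20.2 FPKM (log2 fold change -1.67, SE 0.23, adjusted p = 1.4e-05). SQLE, squalene epoxidase, had 20.4 and 19.1 FPKM without and 20.4 and 25.5 FPKM with lovastatin, and INSIG1, the feedback protein, had 32.5 and 31.9 and 30.8 and 32 FPKM, and neither was called.

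Of 21 lipid handling genes linked to SREBP 5 were higher and 7 lower (median -0.03), near the 28.8% and 30.1% of all genes; without control 1 or lovastatin library 1, 3 rose. SREBF2, which encodes SREBP2, had 21.3 and 23.4 FPKM in the controls and 39.5 and 42.3 FPKM with lovastatin (log2 fold change 0.84, SE 0.14, adjusted p = 9.2e-05), while SREBF1 had 154 and 160.3 FPKM in the controls and 75.7 and 73.6 FPKM with lovastatin (log2 fold change -1.06, SE 0.13, adjusted p = 3.2e-06). In both genes the groups were separate, in opposite directions. Both lovastatin libraries lay above both controls in 39.5% of all genes and below both in 39.6%. The lysosomal cholesterol exporters NPC1 and NPC2 rose by 0.90 and 1.44, and NPC2 reached 428 and 406 FPKM. The lipogenic enzymes SCD and ACLY fell by 0.71 and 0.84, and the cholesterol exporter ABCG1 fell by 0.76.

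Of 10 enzymes of prenyl transfer and related chains 2 rose and 5 fell (median -0.21), against 28.8% and 30.1% of all genes. FNTA, the subunit shared by farnesyl and geranylgeranyl transferase, had 75.2 and 70.3 FPKM in the controls and 131 and 134 FPKM with lovastatin (log2 fold change 0.86, SE 0.19, adjusted p = 0.0013). ICMT and ZMPSTE24, which finish prenylated protein ends, fell by 1.22 and 0.84, and PDSS2, which builds the tail of ubiquinone, by 1.49. The other increase, GGPS1, was lost without any 1 of the 4 libraries, and without control 2, 3 of the decreases were called. Of 32 Ras, Rap, Ral and Rab genes 17 rose and 1 fell (median 0.37), and without control 1 or lovastatin library 1, 2 fell. RRAS, a Ras relative that acts on adhesion, had 30.8 and 33.1 FPKM in the controls and 99.2 and 92.8 FPKM with lovastatin (log2 fold change 1.56, SE 0.092, adjusted p = 7.1e-10). RAB13, which serves tight junctions, went from 32.8 and 38.7 to 84 and 86.6 FPKM (log2 fold change 1.24, SE 0.085, adjusted p = 4.1e-09). RAB5C of early endosomes was the decrease, by 0.46.

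Kruppel-like transcription factors rose in 6 of 9 and fell in 0 (median 1.08), against 28.8% and 30.1% of all genes. KLF2, known in endothelium as a gene induced by statins, had 50.4 and 53.1 FPKM in the controls and 304 and 342 FPKM with lovastatin (log2 fold change 2.62, SE 0.085, adjusted p = 6.6e-13). KLF4 had 7.91 and 7.71 FPKM in the controls and 49.7 and 61 FPKM with lovastatin (log2 fold change 2.67, SE 0.17, adjusted p = 1.3e-09) and KLF6 had 55 and 52.8 FPKM in the controls and 332 and 324 FPKM with lovastatin (log2 fold change 2.58, SE 0.083, adjusted p = 6.6e-13). Both lovastatin libraries lay above both controls in 8 of the 9 factors, these 3 among them, against 39.5% of all genes. Actin genes went the other way. Among 25 genes of the actin cytoskeleton and its regulator SRF 13 fell and 6 rose (median -0.31). Of all genes 30.1% fell and 28.8% rose, so the share that rose was near that of all genes. ACTB, beta-actin, went from 5950.4 and 5243 to 1502 and 1598 FPKM (log2 fold change -1.85, SE 0.064, adjusted p = 1.4e-12). CFL1, which severs filaments, fell from 771 and 760.0 to 321 and 327 FPKM (log2 fold change -1.24, SE 0.06, adjusted p = 7.4e-11), VCL, vinculin of adhesion sites, fell by 1.06 and CNN2, a calponin, by 1.18. CNN1, a smooth muscle calponin, was at or below 0.0725 FPKM in the controls and at 2.78 and 4.87 FPKM with lovastatin. Of 12 targets of YAP and TAZ 2 rose and 2 fell, shares below the 28.8% and 30.1% of all genes. AMOTL2, a feedback protein of that pathway, fell from 48 and 41.5 to 12.1 and 10.4 FPKM (log2 fold change -1.90, SE 0.19, adjusted p = 4e-07). The classical targets CYR61 and CTGF were not called (-0.11 and -0.17). The other decrease, NT5E, was lost without lovastatin library 2.

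The integrated stress response, which slows translation and induces ATF4, had 19 of 28 genes higher, 13 of them at least 2-fold, and 1 lower (median 0.74). Of all genes 28.8% were higher, 11.3% at least 2-fold, and 30.1% lower. ATF4, the central factor, had 120.2 and 121 FPKM in the controls and 283 and 285 FPKM with lovastatin (log2 fold change 1.23, SE 0.051, adjusted p = 1e-11). ATF3 had 4.36 and 5.9 FPKM in the controls and 124 and 131 FPKM with lovastatin (log2 fold change 4.41, SE 0.18, adjusted p = 7.4e-12), and DDIT3, the death-linked factor CHOP, had 14.7 and 15 FPKM in the controls and 139 and 128 FPKM with lovastatin (log2 fold change 3.09, SE 0.11, adjusted p = 1.7e-12). NUPR1, a stress cofactor first found in pancreas, had 1.93 and 1.64 FPKM in the controls and 36.3 and 31.2 FPKM with lovastatin (log2 fold change 3.64, SE 0.24, adjusted p = 3.1e-09). Both lovastatin libraries lay above both controls in 21 of the 28 genes, these 4 among them, against 39.5% of all genes. PPP1R15A, GADD34, which restores translation, and GDF15, a secreted stress cytokine, rose by 2.66 and 3.08. The serine pathway genes PSAT1, SHMT2 and PSPH, known ATF4 targets, had -0.13, -0.18 and -0.28 and were not called. The decrease was that of the amino acid transporter SLC7A5, which was lost without control 1 or lovastatin library 1. Of 18 tRNA synthetase genes, many of them ATF4 targets, 6 rose and 5 fell, near the 28.8% and 30.1% of all genes.

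The ATF4 and CEBP family binding element contains TGATGNAA. Of the 19 risen genes of the list 16 had a promoter sequence, and TGATGNAA was found in 3 (18.8%), against 1.32% of promoters in the table and 3.19% of all. Among all 22 tested members with a promoter sequence, called or not, the share was 13.6%. The list was made of genes of this response, so these shares describe its members and not their rise. They were compared without a test. TGATGNAA is shown in capitals in the 200 bases before a RefSeq start of ATF3 (chr1:212565207-212565406, plus strand), the list's largest increase. A single start per gene was searched, and these data do not show whether the cells use this start of ATF3.
ATF3: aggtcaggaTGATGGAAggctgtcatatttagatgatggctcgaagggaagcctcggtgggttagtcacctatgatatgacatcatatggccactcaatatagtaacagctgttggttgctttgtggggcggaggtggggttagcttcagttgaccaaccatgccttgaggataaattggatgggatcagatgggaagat

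Genes of the unfolded protein response in the endoplasmic reticulum rose in 14 of 19 and fell in 1 (median 0.72), against 28.8% and 30.1% of all genes. HSPA5, the chaperone BiP, had 149.6 and 151 FPKM in the controls and 508 and 501 FPKM with lovastatin (log2 fold change 1.74, SE 0.042, adjusted p = 2.5e-14). HERPUD1, which helps to remove misfolded proteins, had 57.3 and 43.9 FPKM in the controls and 295 and 315 FPKM with lovastatin (log2 fold change 2.58, SE 0.15, adjusted p = 4.9e-10), and the response factor XBP1 rose by 1.57. Cytosolic and mitochondrial chaperones moved the other way: of 15, 10 fell and 3 rose (median -0.37). HSP90AA1, an HSP90, fell from 1055 and 1075 to 557 and 524 FPKM, and HSPD1, the mitochondrial HSP60, from 823 and 835 to 408 and 429.8 FPKM (-0.98 and -0.98 on the log2 scale). Among the increases was that of the small heat shock protein HSPB1, at 336 and 329 FPKM in the controls and 1155 and 1243 FPKM with lovastatin (log2 fold change 1.85, SE 0.042, adjusted p = 1.1e-14).

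Of 18 genes of MAPK output and AP-1, 10 rose and 3 fell (median 1.19), against 28.8% and 30.1% of all genes. FOS had 5.43 and 3.5 FPKM in the controls and 125 and 133 FPKM with lovastatin (log2 fold change 4.59, SE 0.36, adjusted p = 2e-08), and JUN, its partner in AP-1, had 29.2 and 27.8 FPKM in the controls and 184 and 203 FPKM with lovastatin (log2 fold change 2.72, SE 0.069, adjusted p = 4.1e-14). DUSP1, a phosphatase that turns off MAPK signals, went from 13.6 and 14.8 to 101 and 104 FPKM (log2 fold change 2.76, SE 0.11, adjusted p = 4.3e-12). Among other genes known to respond to ERK, EGR1, DUSP5 and IER2 rose by 2.10, 2.06 and 0.88. ETV4, an ETS factor, fell from 22.4 and 26.2 to 3.16 and 2.78 FPKM (log2 fold change -2.67, SE 0.20, adjusted p = 1.2e-08), SPRY4 and SPRED1, feedback inhibitors, fell by 0.44 and 1.23, and DUSP6 had 6.99 and 5.57 and 5.77 and 7.97 FPKM and was not called. The AP-1 letters TGANTCA were found in 0 of 9 promoters of the risen genes, against 3.7% of those in the table, which says only that they are not in these windows.

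NF-kappaB targets rose in 15 of 17 and fell in 0, with a median of 1.85, and 12 were at least 2-fold higher. Among all genes 28.8% rose, 11.3% at least 2-fold, and 30.1% fell. CXCL8, the neutrophil chemokine interleukin 8, had 40.2 and 43.7 FPKM in the controls and 421 and 428 FPKM with lovastatin (log2 fold change 3.31, SE 0.11, adjusted p = 1.4e-12). The related chemokines CXCL2 and CXCL3 went from 8.36 and 6.34 to 82.2 and 72.8 FPKM and from 2.27 and 3.64 to 40.3 and 43.2 FPKM (3.24 and 3.46 on the log2 scale). Both lovastatin libraries lay above both controls in 16 of the 17 genes, these chemokines among them, against 39.5% of all genes. Feedback inhibitors rose too: TNFAIP3, A20, had 1.14 and 2.03 FPKM in the controls and 34.3 and 36 FPKM with lovastatin (log2 fold change 3.83, SE 0.36, adjusted p = 1.9e-07), and NFKBIA, which holds NF-kappaB in the cytoplasm, had 88.9 and 57.6 FPKM in the controls and 494 and 535 FPKM with lovastatin (log2 fold change 2.83, SE 0.34, adjusted p = 2.9e-06). CXCL5 and ICAM1 were not called, and CCL2 and CCL20 were under the filter on low levels.

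Of the interferon-stimulated genes 7 were higher and 4 lower of 15, against 28.8% and 30.1% of all genes. IRF1, an interferon response factor, had 16.7 and 16 FPKM in the controls and 86.4 and 90.0 FPKM with lovastatin (log2 fold change 2.36, SE 0.13, adjusted p = 3.5e-10), and IFIT2 and IFIT3, which bind viral RNA, rose by 2.23 and 2.10. The membrane proteins IFITM1, IFITM2 and IFITM3 fell by 2.35, 1.91 and 1.67, with IFITM1 going from 138 and 135 to 26.5 and 25.5 FPKM. The IFITM genes are close copies of each other, so their reads may be shared.

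Antioxidant and autophagy genes rose. Of 22 NRF2 targets 15 rose and 2 fell (median 0.80), against 28.8% and 30.1% of all genes. AKR1C1, an aldo-keto reductase with close copies that may share its reads, had 55.6 and 61.7 FPKM in the controls and 354 and 353 FPKM with lovastatin (log2 fold change 2.57, SE 0.083, adjusted p = 6.6e-13). HMOX1, heme oxygenase, had 15.7 and 14.7 FPKM in the controls and 53.7 and 52.3 FPKM with lovastatin (log2 fold change 1.74, SE 0.12, adjusted p = 6.6e-09). The subunits of glutathione synthesis went apart, with GCLC higher by 2.07 and GCLM at -0.53, and NQO1, a classical NRF2 target, fell from 693 and 711 to 499 and 526 FPKM (log2 fold change -0.45, SE 0.04, adjusted p = 1e-07). Of 24 autophagy and lysosome genes 18 rose and 0 fell (median 0.81), against the same 28.8% and 30.1%. ATG9B, a membrane supplier of autophagosomes, had 1.03 and 1.03 FPKM in the controls and 35.9 and 31.2 FPKM with lovastatin (log2 fold change 4.08, SE 0.42, adjusted p = 4.8e-07). GABARAPL1, a tag on their membrane, had 9.02 and 13.8 FPKM in the controls and 114 and 99.1 FPKM with lovastatin (log2 fold change 3.14, SE 0.24, adjusted p = 1.3e-08), and the cargo receptor SQSTM1, p62, had 257 and 235 FPKM in the controls and 1065 and 1109 FPKM with lovastatin (log2 fold change 2.14, SE 0.081, adjusted p = 3.7e-12). Both lovastatin libraries lay above both controls in 20 of the 24 genes, these 3 among them, against 39.5% of all genes. WIPI1, OPTN and MAP1LC3A, which act in the same steps, rose by 2.99, 3.01 and 2.74.

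Of 30 hypoxia and glycolysis genes 8 were higher and 11 lower (median -0.04), near the 28.8% and 30.1% of all genes. LDHA, lactate dehydrogenase, had 1086 and 895 FPKM in the controls and 256 and 452 FPKM with lovastatin (log2 fold change -1.53, SE 0.27, adjusted p = 0.00018), and PKM, pyruvate kinase, had 1433 and 1415 FPKM in the controls and 538 and 591 FPKM with lovastatin (log2 fold change -1.33, SE 0.072, adjusted p = 2.1e-10). NDRG1, a stress gene also induced by hypoxia, rose from 8.63 and 10.5 to 67.2 and 109.5 FPKM (log2 fold change 3.05, SE 0.20, adjusted p = 2e-09), and HK2, a hexokinase, from 11.9 and 11.7 to 42.9 and 48.8 FPKM (log2 fold change 1.87, SE 0.083, adjusted p = 2.3e-11).

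Housekeeping machinery was mostly lower, where 30.1% of all genes fell and 28.8% rose. Of 34 respiratory chain and ATP synthase genes 21 fell and 2 rose (median -0.42), and without control 2, 0 rose. ATP5B, the catalytic beta subunit, had 1468 and 1451 FPKM in the controls and 675 and 629 FPKM with lovastatin (log2 fold change -1.16, SE 0.048, adjusted p = 1e-11). Of 30 proteasome genes 21 fell and 1 rose (median -0.49), with PSMD11 of the lid at -1.06. Of 28 ribosome biogenesis genes 21 fell and 0 rose (median -0.65), led by the nucleolar EBNA1BP2, which fell from 293 and 296 to 77.3 and 89.9 FPKM (log2 fold change -1.81, SE 0.077, adjusted p = 1.3e-11). The ribosomal proteins themselves were slightly higher, with 18 up and 3 down of 23 and a median of 0.27; without control 1, 1 fell. RPS19 had 3188 and 3093 FPKM in the controls and 4598 and 5243 FPKM with lovastatin (log2 fold change 0.64, SE 0.074, adjusted p = 1.9e-06); ribosomal protein genes have many pseudogenes that may share their reads.

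**Figure D3:**
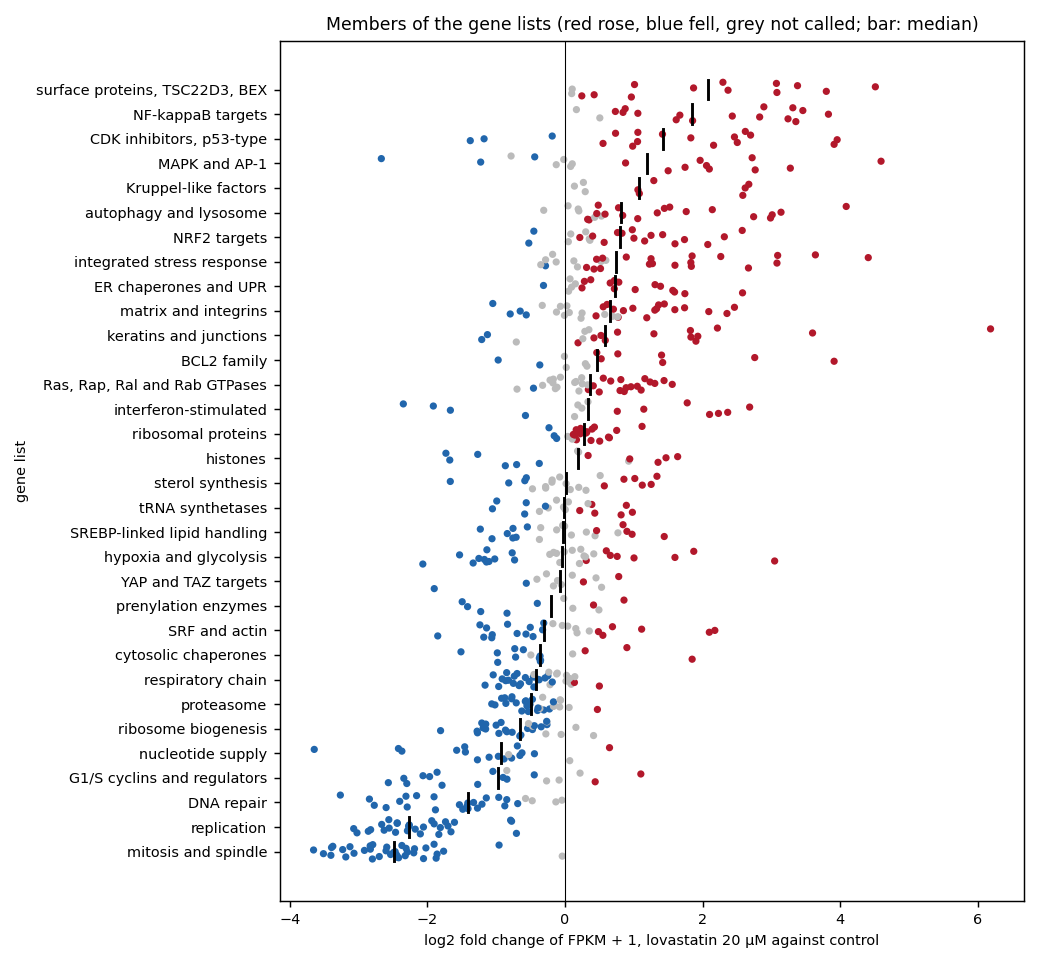
Log2 fold change of FPKM + 1 with lovastatin at 20 µM for each tested member of the gene lists reported here. There is 1 row per list, ordered by its median (black bar). Members that rose are red, those that fell blue and those not called grey. Surface, NF-kappaB and CDK inhibitor lists lie to the right, and DNA repair, replication and mitosis lists lie to the left, with few members across the zero line.

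Matrix, keratin and surface genes were remodelled. Of 32 matrix and integrin genes 17 rose and 4 fell (median 0.65), against 28.8% and 30.1% of all genes. COL6A2, a chain of collagen VI, had 12.2 and 10.8 FPKM in the controls and 68.3 and 67.3 FPKM with lovastatin (log2 fold change 2.46, SE 0.17, adjusted p = 4e-09). PLAU, the plasminogen activator urokinase, had 57 and 83.2 FPKM in the controls and 269.7 and 326 FPKM with lovastatin (log2 fold change 2.09, SE 0.24, adjusted p = 1.6e-06). TIMP1, an inhibitor of matrix proteases, fell from 650.3 and 688 to 379 and 391 FPKM. Among 19 keratin and junction genes 13 rose and 2 fell. KRT15, a basal keratin, had 65.4 and 66.3 FPKM in the controls and 805 and 811 FPKM with lovastatin (log2 fold change 3.60, SE 0.074, adjusted p = 6e-15), while the simple epithelial pair KRT8 and KRT18 fell by 1.13 and 1.21. The keratin KRT19 rose from 132 and 138 to 334 and 330.2 FPKM. CLDN4, a tight junction claudin, and DSP, a desmosome protein, rose by 2.21 and 1.90. In a list of surface proteins joined with TSC22D3 and other genes, 12 of 14 rose and 0 fell; some members were put there because they were known to be high in these data, so its count is no independent evidence. CD82, a tetraspanin, had 7.85 and 8.67 FPKM in the controls and 81.9 and 72.7 FPKM with lovastatin (log2 fold change 3.08, SE 0.29, adjusted p = 1.7e-07), and CD55, which protects cells from complement, had 10.7 and 9.86 FPKM in the controls and 93 and 94.7 FPKM with lovastatin (log2 fold change 3.07, SE 0.18, adjusted p = 7.1e-10). NDRG4, a gene of the NDRG family, rose from 3.11 and 3.07 to 45.8 and 68 FPKM (log2 fold change 3.80, SE 0.26, adjusted p = 4.5e-09). HEG1, a junction protein, and TXNIP, a regulator of glucose uptake, rose by 3.38 and 2.29.

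The response was then set against simvastatin at the same dose, in a contrast of the treated groups that uses no control. Of 8534 genes 3184 (37.3%) differed, 1653 (19.4%) higher with lovastatin and 1531 (17.9%) lower, and 319 (3.74%) and 178 (2.09%) by at least 2-fold. PTGDS had 201 and 194 FPKM with lovastatin and 23, 20.0 and 28.1 FPKM with simvastatin (log2 difference 3.02, 95% interval 2.63 to 3.40, adjusted p = 5.2e-09). KRT15 had 805 and 811 against 129, 109 and 132 FPKM (log2 difference 2.71, 95% interval 2.56 to 2.85, adjusted p = 2.4e-13), and PLAU 269.7 and 326 against 56.6, 56.6 and 67 FPKM (log2 difference 2.29, 95% interval 1.83 to 2.75, adjusted p = 6.9e-07). The groups did not overlap in these genes, which were chosen for their large difference. SNCG, gamma-synuclein, had 35.8 and 32.8 FPKM in the controls, 33.7 and 41.2 FPKM with lovastatin and 5.23, 5.92 and 6.49 FPKM with simvastatin (log2 difference 2.48, 95% interval 2.27 to 2.69, adjusted p = 5.2e-11). HMOX1 was on the other side, with 53.7 and 52.3 FPKM against 343, 350.1 and 351 FPKM (log2 difference -2.69, 95% interval -2.93 to -2.45, adjusted p = 6e-11). FAM25A had 4.74 and 11.6 FPKM with lovastatin and 74.4, 82.3 and 82 FPKM with simvastatin (log2 difference -3.24, 95% interval -4.20 to -2.29, adjusted p = 4e-05), and DUSP15, a phosphatase, ABLIM3, an actin-binding protein, and HES7, a transcription factor, had -2.57, -2.51 and -2.46. UCA1, a long non-coding RNA, is in the table under a pair of gene IDs, and both were lower with lovastatin. SNHG22, another non-coding RNA, was higher by 3.04. UBE3D was higher by 3.07, but its level varied within groups, with 41.4 and 6.5 FPKM in the controls.

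Of the integrated stress response genes 22 of 28 were lower with lovastatin than with simvastatin and 0 were higher (median -0.74). Of all genes 17.9% were lower and 19.4% higher. TRIB3, a pseudokinase of that response, had 15 and 16.3 FPKM in the controls, 57 and 59.6 FPKM with lovastatin and 155, 149 and 149 FPKM with simvastatin (log2 difference -1.36, 95% interval -1.56 to -1.16, adjusted p = 1.9e-08). ASNS, asparagine synthetase, had 127 and 107 against 199, 249 and 232 FPKM (log2 difference -0.95, 95% interval -1.22 to -0.67, adjusted p = 3.9e-05). Respiratory chain genes were higher with lovastatin in 17 of 34, matrix genes in 15 of 32 and NF-kappaB targets in 9 of 17. For RRM2 the log2 difference was 0.02 (95% interval -0.37 to 0.42, adjusted p = 0.94), and for KRT16 it was 0.09 (95% interval -0.19 to 0.37, adjusted p = 0.62); neither was called, and the intervals give the differences that remain possible.

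Against fluvastatin at 20 µM, among 8534 genes 2009 (23.5%) differed, 1059 (12.4%) higher with lovastatin and 950 (11.1%) lower, and 239 (2.8%) and 66 (0.773%) by at least 2-fold. This count fell to 1170 without lovastatin library 2 and to 1173 in a fit of only these groups. CXCL8 had 421 and 428 FPKM with lovastatin and 25.1, 25.7 and 29.2 FPKM with fluvastatin (log2 difference 3.95, 95% interval 3.72 to 4.17, adjusted p = 5.7e-13). CSF3, the granulocyte growth factor, had 26.8 and 26.4 against 0.621, 1.3 and 0.875 FPKM (log2 difference 3.85, 95% interval 3.52 to 4.19, adjusted p = 6.7e-11). FOSL1, an AP-1 subunit, had 55 and 56.9 FPKM in the controls, 57.7 and 52.8 FPKM with lovastatin and 6.64, 4.36 and 3.61 FPKM with fluvastatin (log2 difference 3.29, 95% interval 2.98 to 3.61, adjusted p = 2.1e-10). In these 3 genes, chosen for their large difference, every lovastatin library was above every fluvastatin library. TRAF1, an NF-kappaB adaptor, PLAUR, the urokinase receptor, and PTX3, an acute phase protein, were higher by 3.39, 3.15 and 2.98. NF-kappaB targets were higher with lovastatin in 15 of 17 (median 2.15), as were 15 of 18 MAPK and AP-1 genes (median 1.71) and 22 of 28 integrated stress response genes (median 0.73). Mitosis genes were higher with lovastatin in 25 of 37 (median 0.78). Lower with lovastatin were KLK7, a kallikrein, with 4.04 and 5.18 against 19.2, 16.7 and 20.2 FPKM (log2 difference -1.82, 95% interval -2.30 to -1.33, adjusted p = 2.7e-05) and CLIC3, a chloride channel protein (-1.72). PLD1, FCF1P2, ZNF260 and SEPW1P were also called lower (-1.82, -1.79, -1.71 and -1.70), and without lovastatin library 2 these calls were lost (-1.49, -1.30, -1.29 and -0.93).

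**Figure D4:**
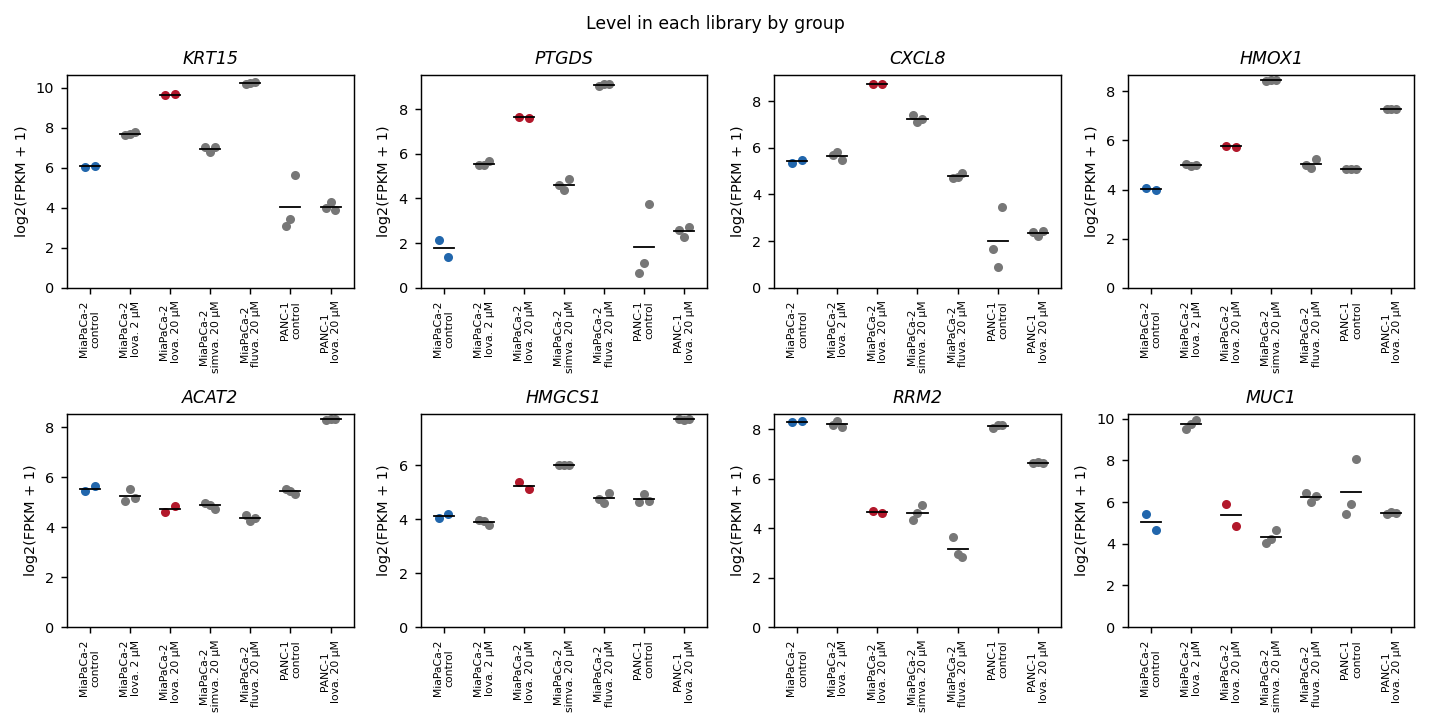
Level of 8 genes in every library of the 7 groups used, as log2(FPKM + 1), with 1 point per library, blue for the MiaPaCa-2 control, red for MiaPaCa-2 with lovastatin at 20 µM and grey for the others; bars are group means. CXCL8 is highest with lovastatin at 20 µM, HMOX1 with simvastatin, PTGDS and KRT15 with fluvastatin, MUC1 with lovastatin at 2 µM, and ACAT2 and HMGCS1 in PANC-1 with lovastatin.

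Between 20 and 2 µM lovastatin, of 8534 genes 4881 (57.2%) differed, 2502 (29.3%) higher at 20 µM and 2379 (27.9%) lower, and 685 (8.03%) and 813 (9.53%) by at least 2-fold. KRT16 had 3.83, 2.77 and 2.69 FPKM at 2 µM and 163 and 186 FPKM at 20 µM (log2 difference 5.43, 95% interval 5.15 to 5.71, adjusted p = 2.2e-14). RRM2 had 308 and 317 FPKM in the controls and 284, 324 and 268 FPKM at 2 µM, against 24.7 and 23.5 FPKM at 20 µM (log2 difference -3.54, 95% interval -3.94 to -3.15, adjusted p = 1.9e-10). CDKN1A had 7.28, 6.79 and 6.27 FPKM at 2 µM (log2 difference 2.57, 95% interval 2.34 to 2.81, adjusted p = 1.8e-11). Of the mitosis genes 36 of 37 and of the replication genes 27 of 29 were lower at 20 µM. RHOB had 28.8, 25.7 and 26.1 FPKM at 2 µM (log2 difference 3.41, 95% interval 3.24 to 3.58, adjusted p = 1.7e-14), between its levels in the controls and at 20 µM. HEG1, S100A2, ATG9B and TSC22D3 were higher at 20 µM by 3.86, 3.66, 3.47 and 3.44. Of 30 hypoxia and glycolysis genes 29 were lower at 20 µM, with a median of -1.94. ALDOC, an aldolase, had 10.6 and 6.56 FPKM in the controls, 202, 204 and 199 FPKM at 2 µM and 3.79 and 2.62 FPKM at 20 µM (log2 difference -5.61, 95% interval -6.04 to -5.17, adjusted p = 2.3e-12). ANGPTL4, a lipase inhibitor induced by hypoxia, had 6.28 and 6.58, then 219, 206 and 197, then 11.8 and 8.91 FPKM (log2 difference -4.21, 95% interval -4.55 to -3.86, adjusted p = 4.2e-12). MUC1, a membrane mucin, had 41.6 and 24.1 FPKM in the controls, 58.4 and 28.2 FPKM at 20 µM and 725, 849 and 977 FPKM at 2 µM (log2 difference -4.34, 95% interval -4.90 to -3.78, adjusted p = 1.1e-09). SLC2A3, DOK3 and PFKFB4 were lower at 20 µM by 4.74, 4.60 and 4.19 on the log2 scale.

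The same dose in PANC-1 gave another response in sterol and inflammatory genes. With both lines in 1 fit, lovastatin's change differed between them for 2837 of 8738 genes (32.5%), 1318 (15.1%) with the higher value in MiaPaCa-2 and 1519 (17.4%) with the lower, and 594 (6.8%) and 503 (5.76%) by at least 2-fold. PANC-1 control 3 stood apart from the other PANC-1 controls in several genes, such as CXCL8 with 2.19, 0.829 and 10.0 FPKM in controls 1 to 3, and without it 2730 genes were called. Of 21 sterol synthesis genes 19 had the lower value in MiaPaCa-2 and 0 the higher, and their median change was 0.02 in MiaPaCa-2 and 1.83 in PANC-1. HMGCS1 had 24, 29.4 and 24.3 FPKM in PANC-1 controls and 205, 204 and 207 FPKM in PANC-1 with lovastatin (log2 difference -1.82, 95% interval -2.13 to -1.51, adjusted p = 1e-10). INSIG1 had 34.8, 29.4 and 31.8 and 119, 119 and 128 FPKM (log2 difference -1.94, 95% interval -2.28 to -1.60, adjusted p = 1.7e-10). In both genes every treated PANC-1 library lay above every PANC-1 control.

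NF-kappaB targets had the higher change in MiaPaCa-2 in 14 of 17 tested there, against 15.1% of all genes. Their medians were 1.85 in MiaPaCa-2 and -0.32 in PANC-1, the latter with PANC-1 control 3 included. NFKBIA had 27, 34.8 and 60.0 FPKM in PANC-1 controls and 64.6, 33.1 and 29.1 FPKM with lovastatin (log2 difference 2.78, 95% interval 1.76 to 3.80, adjusted p = 7.7e-05). RHOB had 18.5, 17.2 and 17.4 FPKM in PANC-1 controls and 217, 219 and 212 FPKM with lovastatin (log2 difference 1.13, 95% interval 0.89 to 1.37, adjusted p = 8.8e-09). CDKN1A had 22.2, 22.8 and 18.4 and 48.3, 49.1 and 52.2 FPKM in PANC-1 (log2 difference 2.75, 95% interval 2.47 to 3.03, adjusted p = 1.3e-15). RRM2 had 264, 283 and 284 and 98.7, 101 and 97.8 FPKM (log2 difference -2.17, 95% interval -2.67 to -1.67, adjusted p = 4e-08). TSC22D3 reached 151, 143 and 143 FPKM in PANC-1 from 9.57, 9.2 and 7.21 FPKM (log2 difference 0.58, 95% interval 0.16 to 0.99, adjusted p = 0.03). Mitosis genes had medians of -2.49 and -1.90, and replication genes had medians of -2.26 and -0.99.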

How the data were processed

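Messenger RNA of MiaPaCa-2 and PANC-1 cells was sequenced after poly-T capture, with paired-end reads, per the labels' protocols. The deposited table holds log2 values for 8738 genes in 42 columns. Alignment with TopHat2 2.0.13 to hg19 and quantification with Cufflinks 1.1 and Cuffdiff are named in the submitters' processing notes. The authors' log2 values were read as log2(FPKM + 1), since 0 of them were at or below 0; this pseudocount is inferred from the values. At least 97.1% of the values of each independent column recurred in 5 or more columns, so the columns hold nearly the same set of values. Depth is unknown, so no counting interval is given. Control 3 and lovastatin library 3 were exact weighted sums of other columns and were left out.

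Groups were compared with limma 3.58.1 (R 4.3.3; trend, robust) on 19 independent MiaPaCa-2 libraries with 1 mean per group, over 8534 genes with at least 1 FPKM in at least 3 libraries, with Benjamini-Hochberg adjustment over all of them. The line difference used all 40 independent libraries. The fit was tested on simulated data with 200 changed genes. Same-numbered libraries did not deviate together (r = -0.00954), so the numbers were not used as pairs. Alternatives were other pseudocounts, filters, fits and left-out libraries.

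Genes named are the 15 largest increases and decreases among called genes whose groups did not overlap and whose higher group passed a minimum mean level. Also named are the leading called members of each list and a fixed set of sterol, signalling, cell cycle and stress genes. From the other comparisons come the 6 largest called differences per direction above that mean level. Other genes named were chosen after their values were seen. Some genes and 1 list that this rule gives are not reported here. The members and lists were chosen with earlier results of these data known.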

Additional observations from a re-analysis of the deposited data

Results flagged for a closer look

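The change with lovastatin at 20 µM differed between MiaPaCa-2 and PANC-1, by the interaction term of the joint limma fit, most in 12 genes. It was higher in MiaPaCa-2 by 5.19 for PTGDS, 5.15 for KRT16, 4.73 for S100A2, 4.68 for TNFAIP3, 4.42 for CD82 and 4.09 for FOS, on the log2 scale. It was lower in MiaPaCa-2 by the log2 differences of -3.69 for ACAT2, -3.15 for LIPH, -3.05 for STARD4, -2.91 for TMEM97, -2.82 for NMU and -2.81 for BEX4. Without PANC-1 control 3, which had 12.3 FPKM of PTGDS against 0.603 and 1.18 FPKM in the other controls, the value was 4.25 for PTGDS, below those of KRT16 (5.14), S100A2 (4.74), TNFAIP3 (4.71) and CD82 (4.49), and -2.34 for BEX4. CD82 had 48.6, 33.4 and 34.7 FPKM in the PANC-1 controls and 16.8, 13.9 and 13 FPKM in PANC-1 with lovastatin, against 7.85 and 8.67 and 81.9 and 72.7 FPKM in MiaPaCa-2. ACAT2, a sterol pathway enzyme, had 45.4, 43.3 and 39.1 and 313, 319.7 and 324 FPKM in PANC-1. STARD4, a sterol carrier, had 5.92, 4.22 and 3.56 and 32.9, 36.2 and 34.8 FPKM in PANC-1, and in MiaPaCa-2 it was under 1 FPKM in all 4 libraries (0.0725 and 0.742 FPKM in the controls, 0.0541 and 0.0855 FPKM with lovastatin). BEX4 had 2.46, 1.52 and 0.115 and 13.4, 14.1 and 15.7 FPKM in PANC-1 and 0.0725 and 0.0129 and 0.0541 and 0.0855 FPKM in MiaPaCa-2, where it was under the filter on low levels. NMU had 0.0035, 0.0033 and 1.25 FPKM in the PANC-1 controls and 0.0033, 0.0035 and 0.0042 FPKM in PANC-1 with lovastatin, against 13.1 and 15 and 0.487 and 0.78 FPKM in MiaPaCa-2. Each of these 3 genes was at or near 0 in most libraries of 1 line. Each entered the comparison through the line that expressed it, so its value mainly gives the change in that line. KRT16 was also low in PANC-1, with 0.0035, 0.0033 and 0.0328 FPKM in the controls and 1.27, 1.09 and 0.853 FPKM with lovastatin. LIPH was low in MiaPaCa-2, with 0.568 and 2.86 FPKM in the controls and 0.0541 and 0.51 FPKM with lovastatin. The lowest values were the same in several genes of a library, such as 0.0541 FPKM for STARD4, BEX4 and LIPH in lovastatin library 1. Such values were read as a floor of the library and not as measured levels. The size of the line differences of these genes therefore depends on the pseudocount. The difference of NMU was no longer called with a pseudocount of 0.1 (-3.06, adjusted p = 0.11).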

How the results depend on the processing

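The count of genes changed against the control was 4227 to 4400 with 1 library left out, where the lone library of a group is assumed to vary like the other groups, and 5851 with all deposited columns; 0 calls changed sign. Of the line-difference calls 5 had the other sign with a pseudocount of 0.1. The count against fluvastatin was 1173 in a fit of only the groups compared and 1170 to 1669 with 1 library left out; the cause was not tested. Left-out libraries gave 2213 to 2802 against simvastatin, 3977 to 4610 for 20 against 2 µM and 2228 to 2758 for the line difference. With the replicate number as a block 4988 genes were called against the control, though the numbers do not pair the libraries. A limma fit of only the control and lovastatin libraries called 4512 genes against the control. In it the adjusted p was 0.000187 for RHOB and 0.000172 for KRT16, far larger than in the main fit, which takes its spread from all 7 groups. Of 246 genes named for that comparison 245 were called, and 27 lost the call in at least 1 alternative. In a fit of only the groups compared, 2 of the 4 matrix decreases were called. Depth is unknown, so the precision of low levels rests on the spread between libraries alone.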
